A study of Saccharomyces cerevisiae with 49 samples.

Results

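The first 20 min after budding yeast cells leave a mating-pheromone arrest were followed on 4 arrays, at 0, 10, 15 and 20 min, out of 49 arrays in the series. The arrays were chosen by their labelled course and time. They came from 1 culture of BY4741 bar1- cells, which lack the protease that degrades alpha factor. The culture was arrested for 3 h with alpha factor at 1 ug/ml, collected on a filter, washed with 500 ml of water and moved to fresh YPD with a 5 ug/ml supplement that the labels do not name. The groups compared are the early arrays (10, 15 and 20 min, n = 3 times), and the array taken immediately at release (0 min, n = 1). Another 13 arrays of the same culture, from 30 to 150 min, give the range of the later course. A further 5 arrays came from 2 cultures with a temperature-sensitive cdc28 allele, which held the cells in G1 during 3 h at high temperature. These arrays cover the first 20 min after the release from that arrest, with 3 early arrays and 2 arrays at 0 min.

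Alpha factor binds the receptor Ste2 on a cells and, through a G protein and a MAP kinase cascade ending in Fus3, activates the transcription factor Ste12. Ste12 switches on genes for adhesion, polarised growth and cell fusion, while Far1 blocks the G1 cyclin kinase. When pheromone is gone, the cyclin kinase activates the factors SBF and MBF, which switch on G1/S genes, and histone, S/G2 and G2/M genes follow in turn.

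Each value is a level on the log2 scale, the ratio of synchronized cells to unarrested mid-log cells on the same array, centred on the array's median. A difference of 1 is 2-fold. Of 6228 features, 4709 had values on all 4 arrays and were tested, 4391 of them with a gene symbol. Another 1370 had a value at 0 min but were missing on a later array, mostly at 15 and 20 min. The arrays held 6109 values at 0 min, 6041 at 10 min, 4911 at 15 min and 5168 at 20 min, and their number limits the precision. The 0 and 20 min arrays carry array number 75 and the other 2 carry number 77, while the 0 and 10 min arrays carry the letter B and the 15 and 20 min arrays the letter T. A step between 10 and 15 min therefore cannot be told apart from a step between letters on these arrays. For the gene lists, the median difference between T and B arrays of the later course (7 and 6 arrays) is given for several lists beside such steps.

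The a-cell label could be checked only in part, because each level is relative to cells of the same kind. The pheromone receptor gene STE2 and the deleted BAR1 had no value on these arrays. The alpha-cell genes MF(ALPHA)1, MF(ALPHA)2, STE3 and SAG1 had levels of -0.40, -0.33, 0.39 and 0.49 at 0 min, and 0 of the 4 could be tested. Of 7 meiosis genes 4 were tested, IME2 was at least 2-fold lower at 10 and 15 min and 0 were at 20 min, and their median early difference was -0.62.

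Mating genes led the features that fell. On average over the early arrays 9 features fell against 0 min, 0.191% of those tested, and 0 rose (0.0%; limma, adjusted p under 0.05). The 8 with a gene symbol were FIG2, NCW2, TEC1, SST2, PRM3, FUS3, YOR385W and CIN5, and each was already at least 2-fold lower at 10 min. In a bulk sample fewer cells with a transcript and less of it per cell cannot be told apart.

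FIG2 (YCR089W), for a mating adhesin, had levels of 4.88 at 0 min, 0.43 at 10 min, 0.004 at 15 min and -0.26 at 20 min. Its early level was 0.06 ± 0.35 (SD, n = 3 times), against 4.88 at 0 min, a difference of -4.82 ± 0.33 (SE, adjusted p = 0.0288). PRM3 (YPL192C), for a nuclear envelope protein used in the fusion of nuclei, had 3.21, 0.18, -0.011 and -0.10 at 0, 10, 15 and 20 min, and fell by 3.19 ± 0.24 (adjusted p = 0.0288). For both genes most of the difference was present at 10 min and every early level lay far below the 0 min level.

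Genes of the signalling pathway itself fell too. SST2 (YLR452C), whose product turns off the pheromone G protein, had levels of 1.36 at 0 min, -1.70 at 10 min, -1.79 at 15 min and -2.02 at 20 min. The difference was -3.20 ± 0.25 (adjusted p = 0.0288), and by 10 min its level lay below the later median of -0.97. FUS3 (YBL016W), the MAP kinase of mating, had 1.96, -0.94, -0.94 and -1.31 at these times and fell by 3.02 ± 0.27 (adjusted p = 0.0448). TEC1 (YBR083W), for a transcription factor that works with Ste12 in filamentous growth, had 2.09, -1.09, -1.49 and -1.34 and fell by 3.40 ± 0.26 (adjusted p = 0.0288). The 3 early levels of each of these genes lay within 0.5 of one another, and all were below the 0 min level.

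NCW2 (YLR194C), for a cell wall protein, had 2.87 at 0 min, -0.69 at 10 min, -1.29 at 15 min and -1.54 at 20 min, and fell by 4.04 ± 0.38 (adjusted p = 0.0466). CIN5 (YOR028C), a stress-response transcription factor gene of the AP-1 family, had 3.23, 0.52, 0.70 and 0.80 and fell by 2.56 ± 0.24 (adjusted p = 0.0466). YOR385W had 2.37, -0.77, -0.67 and -0.30 and fell by 2.95 ± 0.28 (adjusted p = 0.0466). CIN5 and YOR385W were lowest at 10 min and NCW2 at 20 min.

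**Figure D1:**
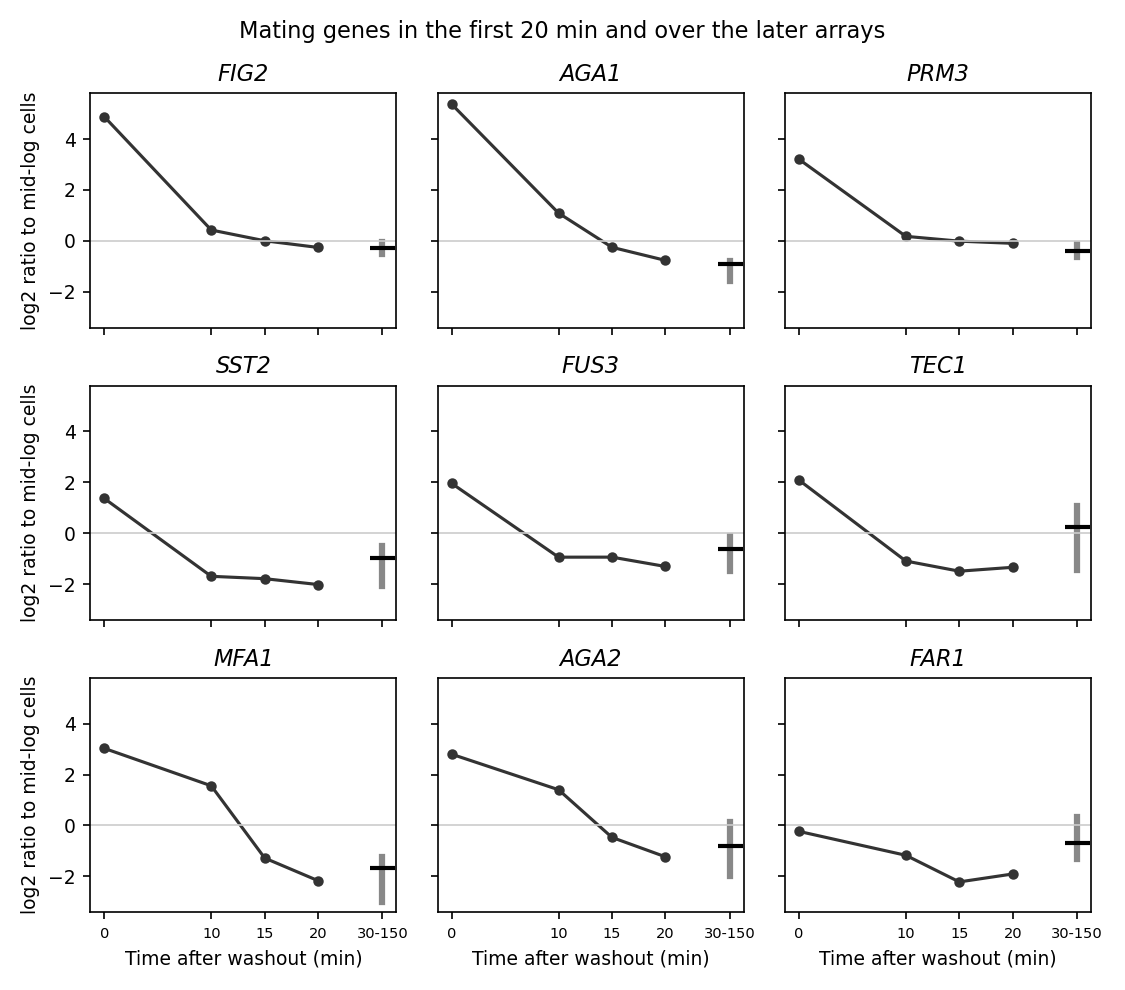
Log2 level relative to mid-log cells (y axis) at 0, 10, 15 and 20 min after washout (points) for 9 mating genes. At the right of each panel the grey bar spans the lowest to the highest level on the later arrays (30 to 150 min) and the black tick is their median. At 10 min FIG2, AGA1, PRM3, MFA1 and AGA2 are above their later range. MFA1 and AGA2 are within it by 15 min and FIG2 by 20 min, while AGA1 and PRM3 are just above it at 20 min.

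These calls rest on the spread among the early times of 1 culture, so a gene that kept changing between 10 and 20 min counted as noisy, and the single 0 min array is assumed to vary like the others. Without the 10 min array 70 features were higher and 170 lower, without the 20 min array 98 and 80, and without the 15 min array 0 and 0 (112 and 201 at an unadjusted p under 0.05). With a linear time term across the early arrays, which leaves 1 residual degree of freedom, 207 features (4.4%) were higher and 288 (6.12%) lower at an adjusted p under 0.05, and all 8 named genes passed. Under quantile normalization or with array letter as a block, 0 features passed in either direction. At an unadjusted p under 0.05, 290 were higher and 419 lower on all 4 arrays, 202 and 249 after quantile normalization, and 261 and 289 with the letter block.

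Other mating genes did not pass the averaged test. AGA1 (YNR044W), the anchor subunit of the a-cell agglutinin, had the highest level of the mating genes at 0 min, 5.37, with 1.09 at 10 min, -0.25 at 15 min and -0.77 at 20 min. The difference was -5.35 ± 0.71 with an adjusted p of 0.145, and 0.000855 with the time term. KAR4 (YCL055W), for a partner of Ste12 in nuclear fusion genes, had 1.49, -0.36, -0.22 and 0.20 at the 4 times (adjusted p = 0.163). FAR1 (YJL157C), the pheromone-activated inhibitor of the G1 cyclin kinase, had -0.23, -1.17, -2.22 and -1.91 (adjusted p = 0.242), and STE12 (YHR084W) had 0.21, -0.71, -0.24 and -1.04 (adjusted p = 0.338). FAR1 and STE12 were thus near the mid-log level at release, unlike AGA1.

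Several fusion genes had no value at 15 or 20 min. PRM1 (YNL279W), for a membrane fusion protein, had levels of 4.81 at 0 min, 0.54 at 10 min and 0.70 at 20 min, with no value at 15 min. With 2 of 3 early arrays allowed, its difference was -4.19 ± 0.27 (adjusted p = 0.0465). FUS1 (YCL027W), also needed for cell fusion, had 2.05 at 0 min, -0.67 at 10 min and -1.95 at 20 min (adjusted p = 0.17 with 2 of 3 early arrays). FIG1 (YBR040W), for a membrane protein of pheromone-induced calcium uptake, was still at 3.79 at 10 min, against 4.72 at 0 min, and had no value at 15 or 20 min. The difference from 0 min at 10 min was thus -0.93 for FIG1, just short of 2-fold, and -4.27 for PRM1.

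Across the mating and fusion list, 19 of 29 members could be tested. At least 2-fold lower were 13 at 10 min, 12 at 15 min and 13 at 20 min, against 3.55%, 8.09% and 8.81% of all features tested. The median difference was -1.40, -1.81 and -1.71 at these times, beside -0.01, -0.05 and -0.03 over all features. FIG2 and PRM3 fell in the averaged test, and 13 members were lower with the time term. Members that behaved otherwise included KAR3 and CIK1, for a motor and its partner that also serve mitosis. KAR3 had 0.30, 0.011, 1.02 and 1.39 at the 4 times, and CIK1 had 1.20, -0.23, 1.12 and 1.41. CIK1 was thus low at 10 min only. Genes named here and below as examples of a list, other than the members of the fixed set, were chosen after their values were seen.

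In the pheromone signalling list 18 of 22 members were tested, and 6 were at least 2-fold lower at 10 min, 8 at 15 min and 8 at 20 min, with medians of -0.87, -0.76 and -0.87. SST2, FUS3 and TEC1 fell, and 9 members were lower with the time term. GPA1, for the G protein alpha subunit, had 0.65, -0.38, -1.61 and -2.02. Not every member was lower. STE4, for the G protein beta subunit, had -0.32 at 0 min and -0.41, -0.12 and -0.09 afterwards, and KSS1, for the second MAP kinase, had -0.018, 0.018, 0.043 and 0.076. The 1 member at least 2-fold higher at 10 min was GIC2, a Cdc42 effector gene that also belongs to the polarity list.

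The list of genes specific to a cells had a larger median difference from 0 min at 15 and 20 min than at 10 min. MFA1 (YDR461W), for a-factor, had levels of 3.03 at 0 min, 1.56 at 10 min, -1.28 at 15 min and -2.17 at 20 min. AGA2 (YGL032C), the binding subunit of a-agglutinin, had 2.80, 1.40, -0.47 and -1.23, and STE6 (YKL209C), the a-factor exporter, had 0.10, -0.86, -2.75 and -2.79. In all 3 the difference at 20 min was larger than that at 10 min. Of 11 listed genes 8 were tested. At least 2-fold lower were 3 at 10 min (MFA1, MFA2 and AGA2), 4 at 15 min and 4 at 20 min, and the median differences were -0.74, -1.71 and -1.80. None passed the averaged test, and 4 were lower with the time term. The list's median difference between T and B arrays of the later course was -0.15.

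How far the release levels had run down can be read against the later course. Of the tested features with values on at least 10 later arrays, 52 were at least 4-fold above their later median at 0 min. For these the share of that distance already covered was computed. The single 0 min value both picked the features and set the start of the distance. Some fall towards the later median is therefore built into the choice, and the shares do not test it. PRM1 and FUS1, which lacked a value at 15 min, were left out. So was FIG1, which had no value at 15 or 20 min and was still at 3.79 at 10 min, against a later median of -0.025. The median share was 66.5% by 10 min, 94.9% by 15 min and 94.5% by 20 min, and 24, 39 and 45 features lay within their later range. For 10 mating and fusion genes the medians were 85%, 91.6% and 94.5%. At 10 min SST2 had covered 130.9%, which places it below its later median, FUS3 112.24% and FIG2 86.09%. AGA1 had covered 67.98%, AGA2 38.57% and MFA1 31.29%.

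Not all of these features were mating genes. HSP104, for a protein disaggregase, had covered 7.67% at 10 min and 123.82% at 15 min, and GPD1, for a glycerol synthesis enzyme, had covered 43.55% and 112.83%. YPS3, for a cell surface protease, lay above its release level at 10 min (-18.24%), and NQM1, for a transaldolase, had covered 17.09% at 20 min. NQM1 thus stayed high: its levels were 3.01, 2.83, 2.21 and 2.58 at the 4 times, against a later median of 0.46.

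Among the features with values on all 4 arrays, more were higher than lower at 10 min than at 0 min. At least 2-fold higher were 204 features at 10 min (4.33%), 380 at 15 min (8.07%) and 293 at 20 min (6.22%). At least 2-fold lower were 167 at 10 min (3.55%), 381 at 15 min (8.09%) and 415 at 20 min (8.81%). The balance at 15 and 20 min depends on the scaling. After quantile normalization there were 350 higher and 289 lower at 15 min and 319 and 308 at 20 min, and without centring 416 and 363 at 15 min and 345 and 364 at 20 min. Counted at the time a feature first passed 2-fold, 204, 221 and 108 were higher and 167, 225 and 122 lower at 10, 15 and 20 min. These differences share the 0 min array and set 1 array against 1, so they have no test. Of the features outside the test 1276 had a 10 min value, and of them 46 were at least 2-fold higher and 75 lower at 10 min. Their balance was thus the reverse of that among the tested features.

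**Figure D2:**
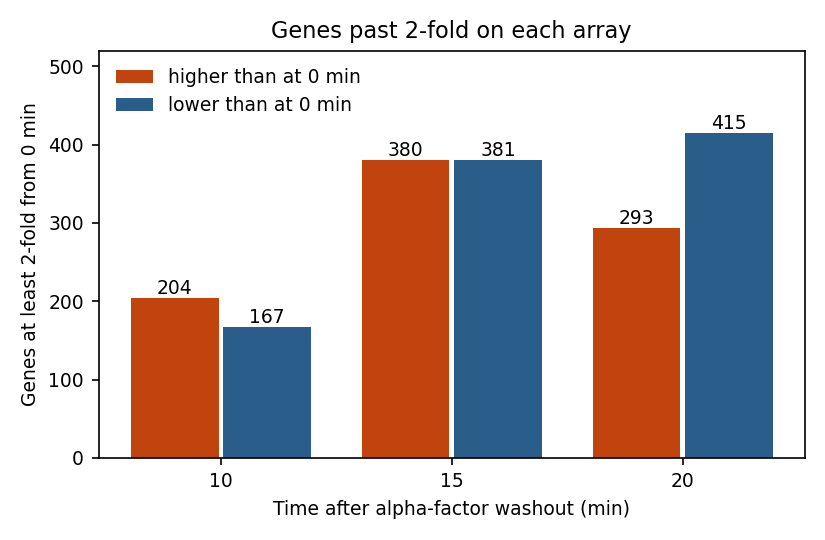
Number of features (y axis) at least 2-fold higher or lower than at 0 min on the arrays at 10, 15 and 20 min (x axis), among 4709 with values on all 4 arrays. Higher features outnumber lower ones at 10 min (204 and 167) and lower ones outnumber higher ones at 20 min (293 higher and 415 lower; 319 and 308 after quantile normalization, which is not drawn).

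Among the cell cycle lists the earliest to be higher was G1/S, the targets of SBF and MBF. Of 50 listed 42 were tested, and 33 were at least 2-fold higher at 10 min, 31 at 15 min and 10 at 20 min, with 0 lower at any time. The median difference was 1.77, 1.48 and 0.35. None passed the averaged test, which counts a peak within the early times as spread, and 22 were higher with the time term. Between 10 and 20 min 29 members were at least 2-fold lower and 1 higher (SUR7, which the G2/M list also holds), with a median of -1.63, beside 6.2% lower and 3.04% higher over all features.

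The G1 cyclin gene CLN1 (YMR199W) had levels of -0.58 at 0 min, 2.87 at 10 min, 2.20 at 15 min and 1.31 at 20 min (adjusted p = 0.18). CLN2 (YPL256C) had -0.32, 2.80, 1.46 and -0.049 (adjusted p = 0.428), so that it was back near its 0 min level at 20 min while CLN1 was not. PCL1 (YNL289W), for a Pho85 cyclin, had -0.47, -0.20, -0.58 and -0.72 and did not share the peak. Upstream of them, CLN3 (YAL040C), the cyclin that starts the G1/S wave, had 1.41, -0.075, -0.53 and 0.17 (adjusted p = 0.176). SWI4 (YER111C), the DNA-binding subunit of SBF, had -0.17, 1.57, 0.53 and -0.50 (adjusted p = 0.64). CLN3 was thus high at release and SWI4 was high at 10 min.

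The S-phase cyclin gene CLB5 (YPR120C) had levels of -0.85, 2.28, 1.11 and 0.47 at 0, 10, 15 and 20 min (adjusted p = 0.264). CLB6 (YGR109C) had -0.10 at 0 min, 4.20 at 10 min and 2.17 at 15 min, with no value at 20 min, so it was not tested. RNR1 (YER070W), the large subunit of ribonucleotide reductase, had -0.91, 2.69, 2.06 and -0.044 (adjusted p = 0.341). All 3 were highest at 10 min.

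The largest difference at 10 min was that of MCD1 (YDL003W), a cohesin subunit gene, with levels of -2.11 at 0 min, 3.44 at 10 min, 2.28 at 15 min and -0.015 at 20 min. YOX1, for a repressor of M/G1 genes, had -0.78, 3.41, 1.55 and 1.14, and POL30, for the sliding clamp PCNA, had -0.76, 2.54, 2.05 and -0.079. NRM1, for a repressor of MBF, was also higher at 10 min, with -1.31, 0.91, 0.86 and 1.64. It was highest at 20 min, when MCD1 and POL30 were back near mid-log level.

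Histone genes came next. At least 2-fold higher were 4 of 9 at 10 min (HTA2, HTB2, HHF1 and HHO1) and 9 of 9 at 15 and 20 min, with median differences of 0.90, 2.86 and 3.53. From 10 to 20 min 8 were at least 2-fold higher and the median was 2.28. None passed the averaged test and 9 were higher with the time term. HTA1 (YDR225W), for H2A, had -1.27, -0.73, 1.03 and 1.48 at the 4 times (adjusted p = 0.363). HHT1 (YBR010W), for H3, had -1.54, -1.12, 1.60 and 2.38, and HTB1 (YDR224C), for H2B, had -0.61, -0.24, 1.41 and 2.04. The linker histone gene HHO1 peaked earlier, with -1.07, 0.67, 1.32 and 0.73. The median difference between T and B arrays of the later course was 0.18 for this list, beside its medians of 0.90 at 10 min and 2.86 at 15 min. The gene pairs for each core histone are near-identical copies, and how well the probes tell them apart was not tested.

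**Figure D3:**
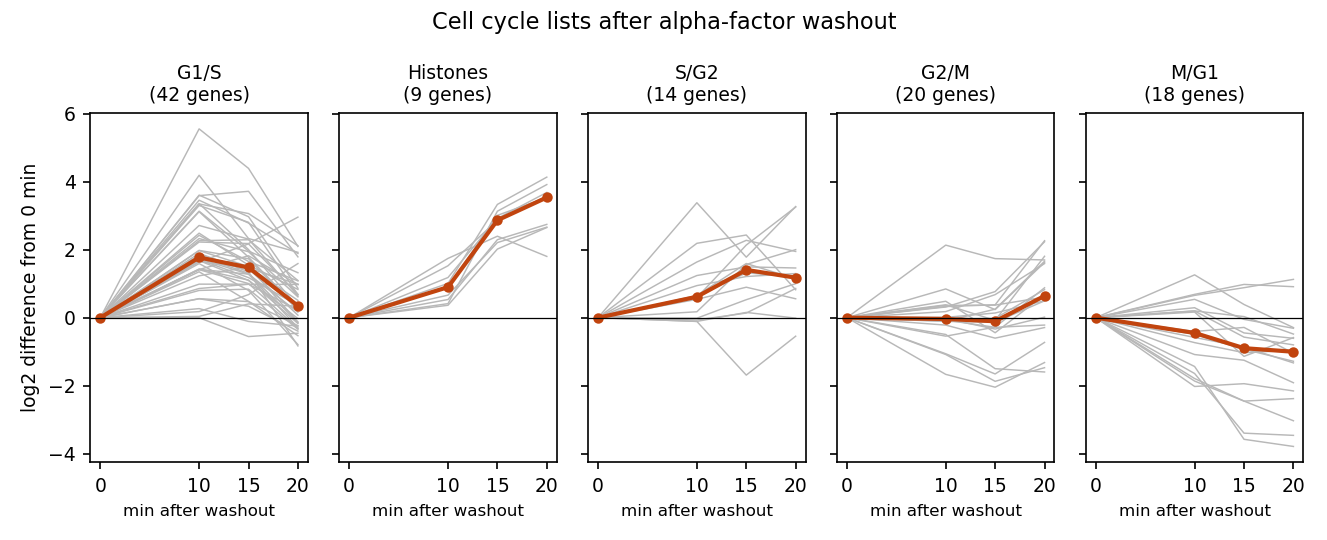
Log2 difference from 0 min (y axis) at 10, 15 and 20 min after washout (x axis) for the tested members of 5 cell cycle lists (grey lines) and their median (red). The G1/S median is highest at 10 min (1.77), the histone median at 20 min (3.53), and the M/G1 median is lowest at 20 min (-1.0).

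S/G2 genes had 4 of 14 tested members at least 2-fold higher at 10 min (NDD1, CIN8, TUB4 and YHP1), 9 at 15 min and 8 at 20 min, with medians of 0.62, 1.41 and 1.18. None passed the averaged test and 8 were higher with the time term. NDD1 (YOR372C), the activator of the G2/M genes, had -1.07, 0.56, 1.20 and 0.87 (adjusted p = 0.145). FKH1, a forkhead transcription factor gene, was later, with -1.47, -0.88, 0.66 and 1.78. TUB4, for gamma-tubulin, was high only in between, with -1.19, 0.99, 1.24 and -0.37. HOF1, for a cytokinesis protein, stood against its list with -1.67, -1.78, -3.36 and -2.22. The later difference between T and B arrays was 0.09 for this list.

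Among G2/M genes 1 of 20 was at least 2-fold higher at 10 min, 1 at 15 min and 7 at 20 min, while 3, 4 and 3 were lower. The medians were -0.04, -0.10 and 0.64, and 1 was higher and 3 lower with the time term. CLB2 (YPR119W), the main mitotic cyclin gene, had -1.22, -0.38, -0.98 and 0.40 (adjusted p = 0.428). SWI5 (YDR146C), a transcription factor gene of mitotic exit, had -2.39, -2.07, -2.02 and -0.13, and CDC5 (YMR001C), the polo kinase gene, had -1.79, -1.48, -1.02 and 0.44. These 3 differed by 2-fold from 0 min at 20 min only. SWI5 and CDC5 were picked as late movers, for a difference under 0.5 at 10 min and a large one at 20 min. NUD1, a spindle pole body gene, was early instead, with -1.10, 1.04, 0.64 and 0.60. ASE1, for a spindle midzone protein, had 1.46 at 0 min and -0.21, -0.59 and 0.14 afterwards, and CDC20, whose product starts anaphase, had -1.01, -1.50, -2.51 and -2.61.

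M/G1 genes, which serve mitotic exit and cell separation, had 6 of 18 tested members at least 2-fold lower at 10 min, 8 at 15 min and 9 at 20 min. The medians were -0.45, -0.90 and -1.0, and 9 were lower and 1 higher with the time term. ASH1 (YKL185W), the daughter-specific repressor of HO, had 0.66, -0.98, -2.73 and -2.80 (adjusted p = 0.229). SIC1 (YLR079W), the inhibitor of the B-type cyclin kinase, had -0.86, -0.57, -1.31 and -1.47 (adjusted p = 0.753). CTS1, for the chitinase of cell separation, was below mid-log level at release and lower afterwards, with -1.58, -3.37, -4.03 and -4.61. AMN1, for an antagonist of mitotic exit, had -1.17, -3.19, -3.11 and -3.32, with an adjusted p of 0.0926. EGT2 and DSE2, for daughter cell wall enzymes, were already far below mid-log cells at 0 min, at -3.83 and -3.13, and differed by less than 2-fold from that afterwards. The list's median difference between T and B arrays of the later course was -0.40, beside its medians of -0.45 at 10 min and -0.90 at 15 min, and the part of the letter in that step was not tested.

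Licensing genes, which load the replicative helicase in G1, had 1 of 11 tested members at least 2-fold lower at 10 min, 3 at 15 min and 4 at 20 min, and 1 higher at 10 min (SWI4). The helicase subunit gene MCM4 had -0.025, 0.19, -1.40 and -2.0 at the 4 times, and MCM5 had -0.22, 0.17, -1.17 and -2.07. MCM4 and MCM7 were 2-fold lower at 15 min and MCM5 at 20 min, and CLN3 at each time. Bud and polarity genes had 6 of 23 at least 2-fold higher at 10 min, 3 at 15 min and 1 at 20 min. GIC2 was high on the 10 min array alone, with 0.50, 2.15, 0.36 and -0.15. RSR1, for the GTPase of bud site selection, had -0.35, 1.54, 1.31 and 0.12.

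Wall and glycosylation genes had 6 of 22 at least 2-fold higher at each of the 3 times, with medians of 0.28, 0.57 and 0.37, and 0, 1 and 1 lower. CRH1, for a glucan-chitin crosslinking enzyme, had 0.65, 2.78, 2.81 and 2.28. OCH1, for the mannosyltransferase that starts outer chains, had 0.18, 2.45, 1.71 and 1.55, and PMT3, for a protein O-mannosyltransferase, had -0.59, 0.85, 0.87 and 0.39. CRH1 and OCH1 were above their release level at all 3 times, and the 1 lower member was SED1, a major wall protein gene. In the calcium list 2 of 12 were at least 2-fold higher at 10 min and 1 lower, 2 and 2 at 15 min, and 0 and 2 at 20 min. Over all features 4.33%, 8.07% and 6.22% were higher and 3.55%, 8.09% and 8.81% lower at these times. GSC2, which had a very high value at 15 min alone, was counted as higher at 15 min in both the wall and the calcium list. CMK2, for a calmodulin-dependent kinase, had 2.85, 0.34, -0.72 and -0.60, and the calcium pump gene PMC1 had 1.13, 0.14, -0.22 and -0.064.

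General stress genes, targets of Msn2 and Msn4, were lower mainly after 10 min. Of 25 listed 14 were tested, and 3 were at least 2-fold lower at 10 min (TPS2, GLC3 and SPI1), 12 at 15 min and 14 at 20 min. YGP1 was the 1 member at least 2-fold higher at 10 min, with a difference of 1.46, and was 2-fold lower at 20 min only. The medians were -0.39, -1.66 and -2.28, and 9 were lower with the time term. TPS2, for trehalose phosphatase, had 3.31, 1.51, -0.26 and -0.81 and was lower at each time. GAD1 (YMR250W), for glutamate decarboxylase, had 1.81, 1.66, -0.47 and -1.87, and GSY2 (YLR258W), for glycogen synthase, had 1.20, 0.81, -1.20 and -1.77. GLK1 (YCL040W), for glucokinase, had 1.45, 1.78, 0.63 and -0.93. GAD1, GSY2 and GLK1 were picked as late movers, for a difference under 0.5 at 10 min and a large fall at 20 min. The median difference between T and B arrays of the later course was -0.016 for this list.

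Heat shock genes had 2 of 21 at least 2-fold lower at 10 min, 10 at 15 min and 5 at 20 min, with medians of -0.16, -0.89 and -0.55 and 3 lower with the time term. HSP42, a small heat shock protein gene, had 3.48, 2.54, 0.56 and 0.41. SSA4, for an inducible Hsp70, was higher at 10 min, with 1.19, 2.72, -0.014 and 0.22. BTN2, for a chaperone of protein sorting, was low in between, with 2.84, 0.14, 0.32 and 2.36. The list's later difference between T and B arrays was -0.018.

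Ribosome biogenesis genes had 0 of 36 at least 2-fold from 0 min at 10 min, 8 higher at 15 min and 13 higher at 20 min. The medians were -0.09, 0.66 and 0.85, and 14 members were at least 2-fold higher at 20 min than at 10 min. HAS1, an RNA helicase gene of ribosome assembly, had -0.89, -1.03, 0.18 and 0.35, and DBP2, for another helicase, had -1.44, -2.13, -0.78 and -0.094. Only 1 member, NOC3, was higher with the time term, and the list's later difference between T and B arrays was -0.06. Ribosomal protein genes, by contrast, had 0 of 131 tested at least 2-fold from 0 min at any of the 3 times, with medians of -0.05, -0.12 and -0.02.

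**Figure D4:**
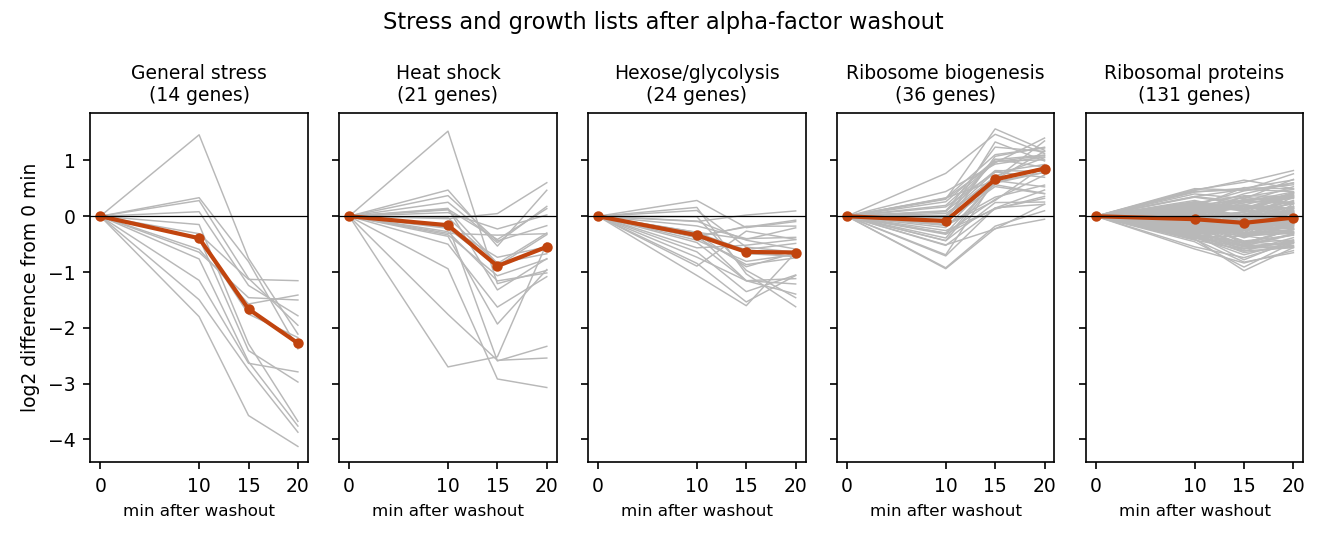
Log2 difference from 0 min (y axis) at 10, 15 and 20 min after washout (x axis) for the tested members of 5 stress and growth lists (grey lines) and their median (red). The general stress median is -2.28 and the ribosome biogenesis median 0.85 at 20 min, and the ribosomal protein median lies within 0.12 of 0.

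Hexose transport and glycolysis genes had 1 of 24 at least 2-fold lower at 10 min and 7 at 15 and at 20 min, with medians of -0.34, -0.64 and -0.65. The pyruvate decarboxylase gene PDC1 had 1.69, 1.05, 0.34 and 0.64. Respiration genes had 0 of 17 lower at 10 min and the same 4 at 15 and 20 min (CIT1, KGD1, SDH2 and ATP1), with medians of -0.14, -0.42 and -0.62. Sulfur genes had 3 of 13 lower at 10 min (MET2, MET6 and MUP1), 8 at 15 min and 4 at 20 min, with medians of -0.69, -1.08 and -0.65. MET6, for methionine synthase, had -0.066, -1.64, -1.85 and -0.33, so that its low was over by 20 min. The later difference between T and B arrays was -0.07 for hexose and glycolysis genes, 0.04 for respiration genes and 0.03 for sulfur genes.

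Iron genes had 0 of 12 higher and 3 lower at 10 and 15 min (ENB1, FET3 and TIS11), and 1 higher (SIT1) and 2 lower at 20 min. ENB1, a siderophore transporter gene, had -0.10, -1.47, -2.05 and -1.75. Phosphate genes had 1, 1 and 2 of 13 higher and 0 lower at 10, 15 and 20 min, beside 4.33%, 8.07% and 6.22% higher over all features, among them PHM6, a phosphate-responsive gene, with -2.84, -1.71, -1.30 and -1.13. Amino acid genes had 0 of 29 higher and 1 lower at 10 min (CPA1), 3 and 2 at 15 min, and 1 and 1 at 20 min (ILV5 higher and GLN1 lower). At 15 min 8.07% of all features were higher and 8.09% lower, so these shares are near those over all features.

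The late movers among named genes, within 0.5 of 0 min at 10 min and farthest from it at 20 min, included 3 genes outside these lists. EIS1 (YMR031C), for an eisosome protein, had 0.45, 0.21, -2.10 and -2.26. YNL134C had 1.39, 1.44, 0.032 and -0.96, and MRX12 (YJR003C) had -1.64, -1.43, -0.45 and 0.59. EIS1 made its step between 10 and 15 min, while the other 2 were still moving at 20 min. The difference between T and B arrays of the later course was -0.48 for EIS1, -0.26 for YNL134C and 0.12 for MRX12. The part of the letter in these steps was not tested.

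Whether the change differed from that after another release from G1 was tested against the cdc28 cultures over the same 20 min, for 4199 features with values on all 9 arrays. The change after alpha factor differed from that in the cdc28 cultures for 2 features, both lower after alpha factor (0.0476%), and 0 were higher (0.0%; limma, adjusted p under 0.05). Within the cdc28 cultures 1 feature was higher on the early arrays (HIS4, 0.0238%) and 2 lower (GPM2 and SKS1, 0.0476%). For the difference between releases, at an unadjusted p under 0.05, 122 were higher (2.91%) and 285 lower (6.79%). FIG2 was 1 of the 2 features called. After alpha factor it had the levels given above, whereas the cdc28 cultures had 0.43 (culture B, 15 min), 0.51 and 0.15 (culture E, 10 and 20 min) on the early arrays, against 0.41 and -0.34 at 0 min. The difference of the changes was -5.14 ± 0.48 (SE, adjusted p = 0.00198). The other feature was a probe with no gene symbol, with 4.38, 0.67, 0.45 and 0.37 after alpha factor and a difference of -3.85.

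Other mating genes did not pass this test. The difference of the changes was -5.84 for AGA1, -3.58 for SST2 and -2.92 for FUS3, each at an adjusted p of 0.0891, and -2.53 for the transcription factor gene CIN5 at 0.0892. TEC1 lacked a value on 1 of the 9 arrays. It was also lower on the early cdc28 arrays, with 0.022 against 1.54 at 0 min in culture B, and -1.08 at 20 min against 0.79 at 0 min in culture E.

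By list, the median change was -1.62 after alpha factor and 0.22 in the cdc28 cultures for mating and fusion genes, and -0.88 and 0.19 for pheromone signalling. At an unadjusted p under 0.05, 10 of 18 and 8 of 17 members had the lower change after alpha factor, and 0 the higher. Over all features 6.79% had the lower change and 2.91% the higher. For histones the medians were 2.48 after alpha factor and -0.08 in the cdc28 cultures, and 7 of 9 members had the higher change. The histone median was 0.35 in culture B at 15 min, and -0.71 and -0.28 in culture E at 10 and 20 min. G1/S genes had medians of 1.08 and 0.75, with 1 of 37 members apart at that p. The courses within these averages differed. The G1/S median was 0.97 in culture B at 15 min, and 0.17 and 1.18 in culture E at 10 and 20 min. After alpha factor, over 42 members, it was 1.77, 1.48 and 0.35 at 10, 15 and 20 min. M/G1 genes had medians of -0.52 after alpha factor and 0.37 in the cdc28 cultures, with 6 of 15 lower after alpha factor.

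The medians were -1.20 after alpha factor and -1.52 in the cdc28 cultures for general stress, -0.49 and -0.91 for heat shock, and 0.54 and 0.83 for ribosome biogenesis. At an unadjusted p under 0.05, 0 of 12, 2 of 20 and 2 of 30 members differed. Over all features 2.91% were higher and 6.79% lower at that p, and the counts below stand beside these shares. Ribosomal protein genes had medians of -0.05 after alpha factor and 0.11 in the cdc28 cultures, with 11 of 123 members lower after alpha factor and 0 higher. Hexose and glycolysis genes had medians of -0.55 after alpha factor and 0.45 in the cdc28 cultures, phosphate genes 0.22 and 0.85, and iron genes -0.16 and 1.28, with 3 of 21, 2 of 12 and 4 of 12 lower after alpha factor. On the later alpha-factor arrays the median difference between T and B was -0.38 for phosphate genes and -0.44 for iron genes. The part of the letter in their changes was not tested. The cdc28 cultures differed for the hexose and glycolysis list, whose median was -0.41 in culture B at 15 min and 1.16 and 1.05 in culture E at 10 and 20 min.

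**Figure D5:**
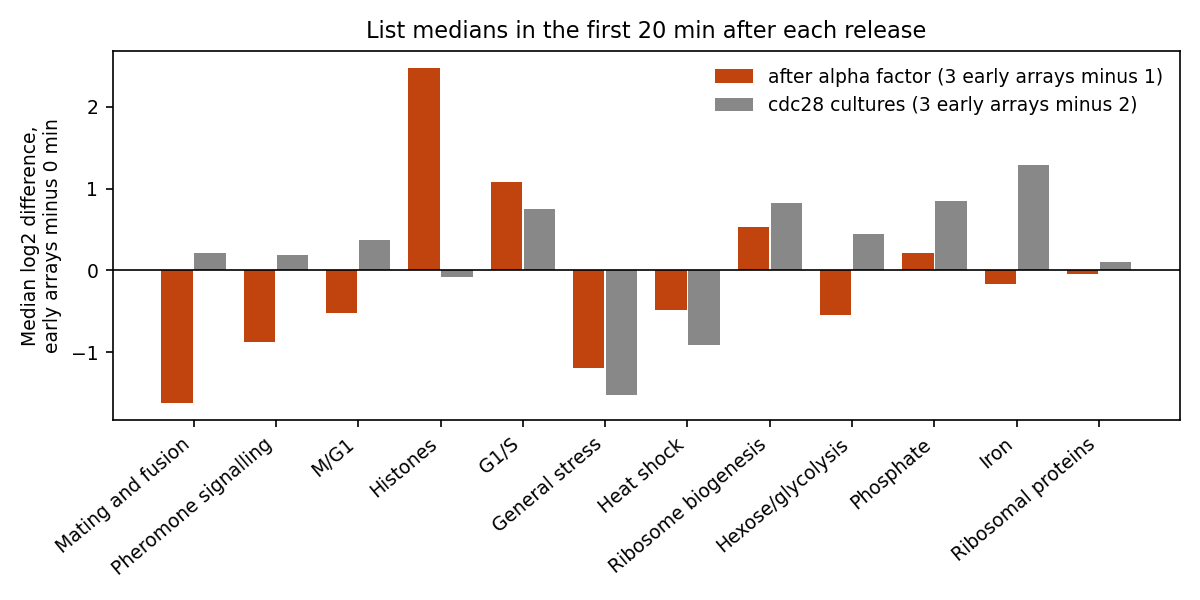
Median log2 difference of the early arrays from 0 min (y axis) for 12 gene lists, after alpha factor (red) and in the cdc28 cultures (grey). Mating and fusion genes (-1.62 and 0.22) and histones (2.48 and -0.08) have medians far apart, and those of general stress genes (-1.20 and -1.52) have the same sign.

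The releases also differ in strain, way of arrest, temperature and culture, which cannot be told apart here. With culture as a replicate block 11 features had the lower change and 0 the higher, without the 10 min alpha-factor array 21 and 6, without the 0 min array of culture B 11 and 2, and after quantile normalization 0 and 0 (220 and 169 at an unadjusted p under 0.05).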

How the data were processed

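Messenger RNA of synchronized cells (Cy5) and of unarrested mid-log cells (Cy3) was hybridised together on dual-colour arrays, per the labels. The deposited ratios were read as log2, with synchronized cells on top, after the dyes in the labels. Log base, centring and direction are unstated in the table. How the authors filtered and normalized spots is not stated in the labels used. Of 6258 probes 5570 carried 1 gene symbol and 688 none, and 5565 matched the RefSeq gene table (assembly R64), which gave locus tags. Probes of 29 genes were averaged. For each of these genes the largest range in level between its probes on any early or 0 min array after alpha factor was taken. The median of these ranges was 0.43.

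Each array was centred on its median. limma 3.58.1 in R 4.3.3 compared the early arrays with 0 min, and this change with that in the cdc28 cultures, two-sided with Benjamini-Hochberg adjustment. The fit against 0 min was tested on simulated data. Figures used matplotlib 3.10.9. The replicates are times of 1 culture, so p-values measure only their spread. Alternatives were centring, quantile normalization, missing values, blocks, a time term, thresholds and arrays left out.

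The members, the 24 lists and the tests were chosen with earlier results of these data known. Genes named by rule were the 10 largest calls each way, the 3 largest of each list, 22 core genes, and the 5 earliest and latest movers each way. Promoter sequences were not analysed here.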

Additional observations from a re-analysis of the deposited data

Results flagged for a closer look

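The change of FIG2, a mating adhesin gene, over the first 20 min differed between the alpha-factor and cdc28 cultures by -5.14 on the log2 scale, in a test of the difference itself (limma). A probe with no gene symbol differed in the same test by -3.85. Both were lower on all 3 early arrays after alpha factor than at 0 min.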

How the results depend on the processing

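The averaged comparison with 0 min gave 0 features higher and 9 lower. The count of higher features was 8 with the spread of 9 arrays, 207 with a time term and 14 with array number as a block. The count of lower features was 32, 288 and 48 under these settings, 0 after quantile normalization, 0 with array letter as a block and 0 at an adjusted p under 0.01. Leaving out 1 early array gave 0 to 98 higher and 0 to 170 lower. Differences between single arrays at 1.5 log2 units gave 97 higher and 64 lower at 10 min, 137 and 149 at 15 min, and 76 and 154 at 20 min. For the difference between the releases (0 higher, 2 lower), the replicate block by culture gave 11 lower, quantile normalization 0 lower, and leaving out 1 array 0 to 6 higher and 2 to 21 lower. Over their alternatives the adjusted p of the 8 named genes that fell ran from 0.000169 to 0.289, and all 8 passed with the time term. Differences that changed sign were those of SWI4 with the number block (-0.324), of PCL1 without centring (0.002), with 1 early array left out (-0.178 to 0.079; 0.01 without 15 min) and with the letter block (0.267), and with the letter block those of SIC1 (0.293), GLK1 (0.332) and YNL134C (0.054). The letter block leaves the 10 min difference and the number block the 20 min difference by construction. For other changes the cause was not tested. Array number and missing values at 15 and 20 min limit what can be called.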

Other observations

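Some very high values occurred on single T arrays. GSC2, for a stress-induced glucan synthase subunit, had levels of 3.27 at 0 min, 2.54 at 10 min, 6.63 at 15 min and 2.46 at 20 min. The retrotransposon gene YIL082W-A was 6.97 higher at 20 min than at 0 min. The highest value of any feature was 6.91 on the 0 min array, 4.13 at 10 min, 10.43 at 15 min and 9.60 at 20 min. Whether these readings are spot faults was not tested.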
